A study of Mus musculus with 10 samples.

Results

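The genes described here are 10 scavenger receptors and related molecules of the mouse, *Marco*, *Msr1*, *Colec12*, *Cd36*, *Scarb1*, *Scarb2*, *Olr1*, *Scarf1*, *Stab1* and *Cd5l*, in a table of 55453 genes. They were selected on their names, and *Marco* was chosen partly because it was higher in treated mice at low counts, so its values in that comparison are a description with no test. The libraries were made from hippocampal microglia, sorted as CD45int CD11b+ cells, of 3xTg AD females aged over 15 months. All 10 libraries came from this genotype, a homozygous line whose transgenes include human APP with the Swedish mutation and mutant human MAPT under the Thy1.2 promoter, and which develops plaques and phosphorylated tau with age. The GA group (5 libraries) received subcutaneous glatiramer acetate, a random copolymer of amino acids used in multiple sclerosis, at 0.1 mg weekly for about 8 weeks, and the PBS group (5 libraries) received phosphate-buffered saline. The comparison asks how the microglial transcriptome differed between GA-treated and PBS-treated animals.

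Scavenger receptors are surface proteins that bind modified lipoproteins, bacterial surfaces, dying cells and protein aggregates, and many hand their cargo to the lysosome. Class A members carry a collagen-like stalk, class B members cross the membrane at both ends, and other classes use lectin, EGF-like or link domains. In the brain, microglia and the macrophages of the meninges and vessel walls use members of both major classes to bind and take up fibrillar amyloid β.

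Libraries were named with a prefix and a number. The PBS libraries were 388_1 to 388_5, and the GA libraries were 394_1, 394_2, 400_1, 400_2 and 400_3. What the prefix stands for is not given in the sources used here, and no prefix held both treatments, so prefix and treatment cannot be told apart. Each library held 32332185 to 38764643 counts. Levels are given as CPM, a gene's counts relative to the normalised library size. The summed CPM of 10 microglial markers ran from 55020 to 65397 in PBS and from 56099 to 60680 in GA, and Ptprc and Itgam, which encode the sorting antigens CD45 and CD11b, were present in every library. Border-associated macrophage markers summed to 53.7 to 280 CPM in PBS and 53.6 to 212 CPM in GA. Of the 10 genes of that list 9 were lower in GA (median log2 fold change -0.30), 0 of them with an unadjusted edgeR p under 0.05. Neutrophil markers ran from 38.0 to 448 CPM in PBS and from 11.03 to 170 CPM in GA, and all 8 tested genes of that list were lower in GA. Of these, 7 had an unadjusted edgeR p under 0.05, against 5.75% of all genes tested, and 0 were called after adjustment. In bulk libraries such as these, fewer cells of a type and less RNA per cell cannot be told apart.

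*Marco* encodes a class A receptor of macrophages that binds bacteria and particles. It was close to absent from PBS libraries and present at a low count in each GA library. The counts were 3, 0, 2, 0 and 1 in 388_1 to 388_5. In the GA group they were 28 in 394_1, 7 in 394_2, 21 in 400_1, 7 in 400_2 and 13 in 400_3. Every GA library stood above every PBS library, and the highest GA library held 4 times the counts of the lowest. Of the 27564 genes with at least 1 count, 83 had every GA library above every PBS library (0.301%), and since *Marco* was chosen on this contrast nothing is read from its place among them.

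In CPM, *Marco* was at 0.0336 ± 0.0355 in PBS (SD, n = 5) and at 0.432 ± 0.284 in GA (SD, n = 5). The GA values ran from 0.183 to 0.839 CPM and the PBS values from 0 to 0.0784 CPM. A count of 0 in 388_2 and in 388_4 allows up to 0.0896 and 0.0929 CPM, the level of 3 counts. This lies below the value of the lowest GA library, 400_2, but not below its counting interval, which reaches down to 0.0737 CPM. Counts pooled over each group, 76 in GA and 6 in PBS, gave a ratio of 12.1 per read. The ratio ran from 9.34 without 394_1 to 18.8 without 388_1. Only 3 libraries, all GA, reached the 0.284 CPM that the low-count filter asks of at least 5, so *Marco* was not among the 14481 genes tested. A fit of edgeR's quasi-likelihood model without that filter gave a log2 fold change of 3.53 (SE 0.87), GA minus PBS.

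**Figure D1:**
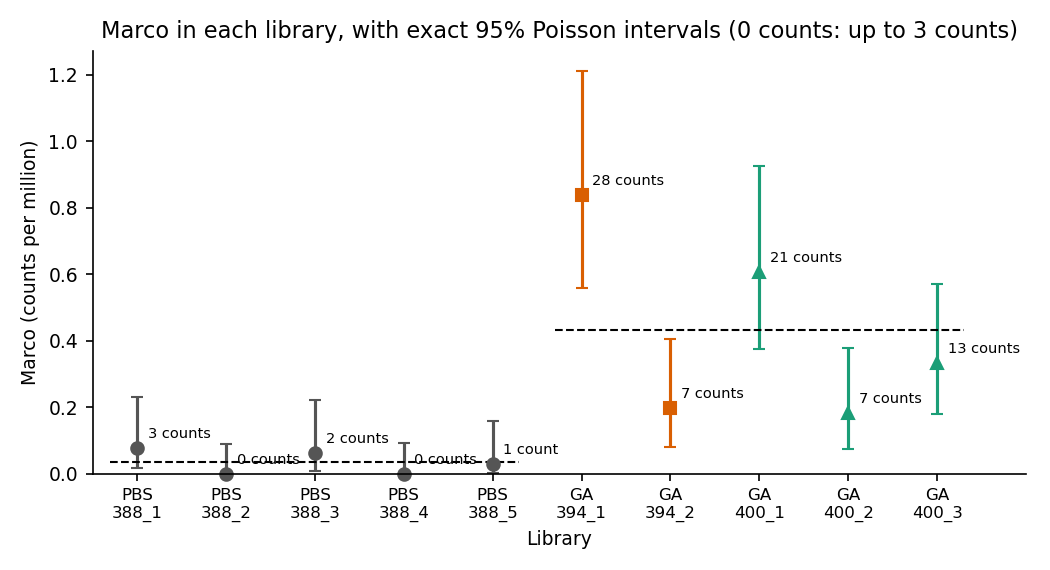
*Marco* in CPM (vertical axis) in each of the 10 libraries (horizontal axis), with exact 95% Poisson intervals as bars (up to 3 counts where the count is 0; counting error only), the count beside each point and the group mean as a dashed line. The 5 PBS libraries sit at or below 0.0784 CPM and the 5 GA libraries at or above 0.183 CPM, while the counting intervals of the lowest GA libraries reach down into those of the PBS libraries.

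The *Marco* gene lies at chr1:120474538-120505024 on the minus strand of GRCm38, with 17 exon blocks and no other annotated gene overlapping it. The 250 bases before its start are shown 5′ to 3′, as context for the motif counts given with them (RefSeq, GRCm38.p6, chr1:120505025-120505274, minus strand). Capitals mark GAGGAA, the core of the element bound by PU.1, a transcription factor of the macrophage lineage.

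Marco: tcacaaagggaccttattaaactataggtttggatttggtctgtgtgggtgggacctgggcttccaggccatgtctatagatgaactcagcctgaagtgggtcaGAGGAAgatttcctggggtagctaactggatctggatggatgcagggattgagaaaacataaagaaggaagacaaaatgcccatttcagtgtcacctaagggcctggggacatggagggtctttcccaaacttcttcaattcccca

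This match begins at position -146 relative to the start. Searched on both strands, GAGGAA was present in 28.3% of 32851 promoter windows of 300 bases (250 before and 50 after the start), so a match is common. The AP-1 element TGANTCA was in 7.81% of windows, the antioxidant response element TGACNNNGC in 12.4% and TATAAA in 13.6%, and none of these 3 was found in the *Marco* window. The table held windows for 6 of the 10 genes, and GAGGAA was present in those of *Marco*, *Olr1*, *Stab1* and *Cd5l*. The window of *Olr1* also held a TGANTCA match, and that of *Scarb2* held TGACNNNGC. The *Cd36* window held none of the 4 motifs. These matches are a description of the letters and not of binding.

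The other class A members did not separate the groups. *Msr1* (chr8:39581685-39642673, minus strand) encodes the class A receptor for acetylated lipoproteins, which also binds amyloid fibrils. It was at 7.11, 6.12, 10.01, 10.5 and 14.9 CPM in 388_1 to 388_5. In the GA libraries, in the order given above, it was at 10.1, 11.3, 7.79, 13.4 and 8.61 CPM. The GA values all fell within the PBS range. The log2 fold change was 0.07 (SE 0.22).

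*Colec12* encodes a class A receptor with a C-type lectin domain. It was at 4.73, 3.14, 3.33, 8.79 and 4.79 CPM in the PBS libraries. The GA libraries held 2.58, 8.81, 6.32, 9.77 and 6.71 CPM, so that the lowest and the highest library were both GA. Its log2 fold change was 0.47 (SE 0.34), with an adjusted p of 0.909 in edgeR.

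Of the class B members, *Cd36* differed between the GA libraries by their prefix. *Cd36* (chr5:17781690-17888801, minus strand) encodes a receptor for oxidised lipoproteins, long-chain fatty acids and amyloid β. It was at 8.24, 7.61, 7.42, 9.88 and 7.93 CPM in the PBS libraries. In GA it was at 4.91 and 2.80 CPM in 394_1 and 394_2, against 8.17, 10.1 and 9.90 CPM in 400_1, 400_2 and 400_3. The pair of prefix 394 lay below every PBS library, and the 3 of prefix 400 lay within or just above the PBS range. The log2 fold change of GA minus PBS was -0.20 (SE 0.28) over all 5 GA libraries. It was -1.08 with the GA libraries of prefix 394 alone (edgeR adjusted p = 0.99999) and 0.20 with those of prefix 400 alone (edgeR adjusted p = 0.928).

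*Scarb1* (chr5:125277087-125341094, minus strand) encodes the HDL receptor SR-B1. It was at 82.0, 81.3, 69.2, 74.1 and 75.3 CPM in PBS. The GA libraries held 72.5, 75.3, 81.7, 81.3 and 89.8 CPM, and only 400_3 lay above the PBS range. The log2 fold change was 0.07 (SE 0.08). *Scarb2* (chr5:92441314-92506833, minus strand) encodes LIMP-2, a lysosomal membrane protein that carries glucocerebrosidase. It was at 185, 199, 209, 222 and 230 CPM in PBS and at 198, 195, 214, 216 and 215 CPM in GA, with a log2 fold change of -0.01 (SE 0.07). These 2 genes had the smallest standard errors among the members.

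*Stab1* (chr14:31139013-31168641, minus strand) encodes stabilin-1, a class H receptor of tissue macrophages and sinusoidal endothelium. It was at 432, 383, 404, 442 and 295 CPM in PBS and at 358, 510, 397, 460 and 412 CPM in GA. The lowest library was 388_5 and the highest 394_2, and the groups overlapped. The log2 fold change was 0.13 (SE 0.11). Its exons share 112 bases with *Nt5dc2* on the opposite strand, and the library kit does not keep the strand.

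The remaining members were low. *Olr1* (chr6:129485244-129507165, minus strand) encodes LOX-1, a C-type lectin that binds oxidised LDL. It ran from 0.601 CPM in 388_1 to 3.06 CPM in 388_4, and the GA libraries, at 1.68 to 2.11 CPM, all lay between these. The SD was 0.906 CPM in PBS and 0.169 CPM in GA. *Scarf1* (chr11:75513540-75526582, plus strand) encodes a class F receptor with EGF-like repeats that binds dying cells. It was at 0.935 to 2.60 CPM in PBS and at 1.04 to 2.38 CPM in GA.

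*Cd5l* (chr3:87357881-87371073, plus strand) encodes a secreted scavenger protein of macrophages, also called AIM. Its counts were 26, 44, 6, 0 and 6 in PBS and 22, 18, 14, 37 and 17 in GA. The PBS libraries thus held both the highest and the lowest value, and the GA libraries lay between them. In CPM it was at 0.469 ± 0.536 in PBS (SD, n = 5) and at 0.595 ± 0.231 in GA (SD, n = 5). The count of 0 in 388_4 allows up to 0.0929 CPM. Its log2 fold change was 0.34 (SE 0.74) in edgeR and 1.35 with limma-voom, and ran from 0.021 without 388_4 to 1.17 without 388_2, with adjusted p-values from 0.791 upwards.

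**Figure D2:**
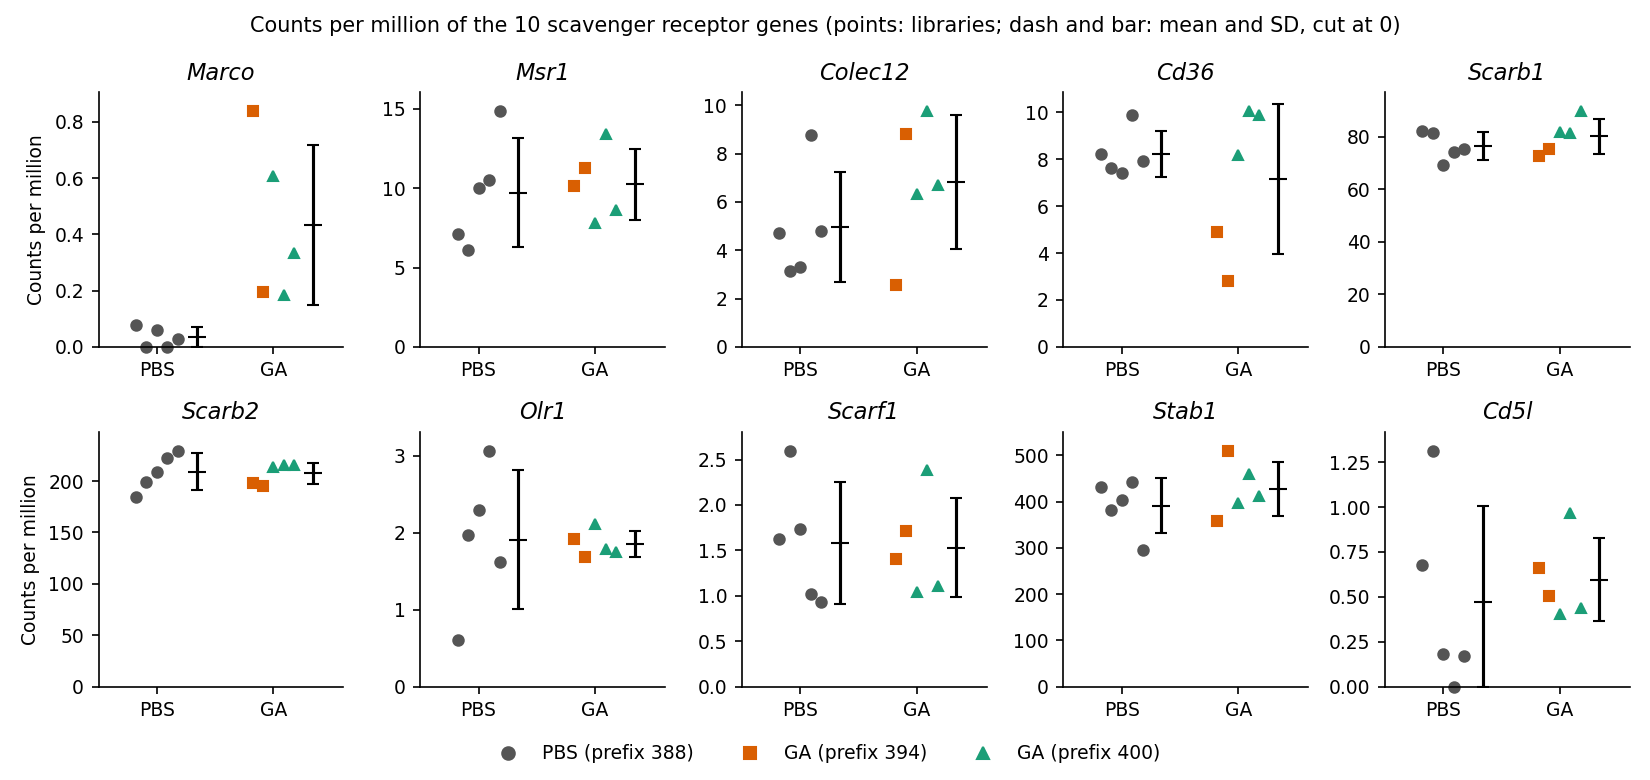
CPM (vertical axes, each from 0) of the 10 genes in the PBS and GA libraries, with points for libraries, shape and colour for the prefix of the library name, and a dash and bar for the mean and SD, with bars cut at 0. The groups are apart in the *Marco* panel, and the *Cd36* panel shows the libraries of prefix 394, at 4.91 and 2.80 CPM, below all other libraries.

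Of the 9 members that passed the low-count filter, 5 were higher and 4 lower in GA, with a median log2 fold change of 0.07 against 0.0002 over all 14481 genes tested. None of the 9 was called at an adjusted p under 0.05 by edgeR's quasi-likelihood test, and adjusted p-values ran from 0.909 to 0.992. The background was the same, since 0 genes were called in the whole table (0%). None of the 9 reached an unadjusted p under 0.05 either, where 5.75% of all genes tested did (833 genes). DESeq2 and limma-voom also called 0 of the 9, where DESeq2 called 2 of 18894 genes and limma-voom 0 of 14481. The standard errors show how large a change could have been missed: they were 0.07 and 0.08 for *Scarb2* and *Scarb1*, but 0.35 for *Olr1* and *Scarf1* and 0.74 for *Cd5l*.

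**Figure D3:**
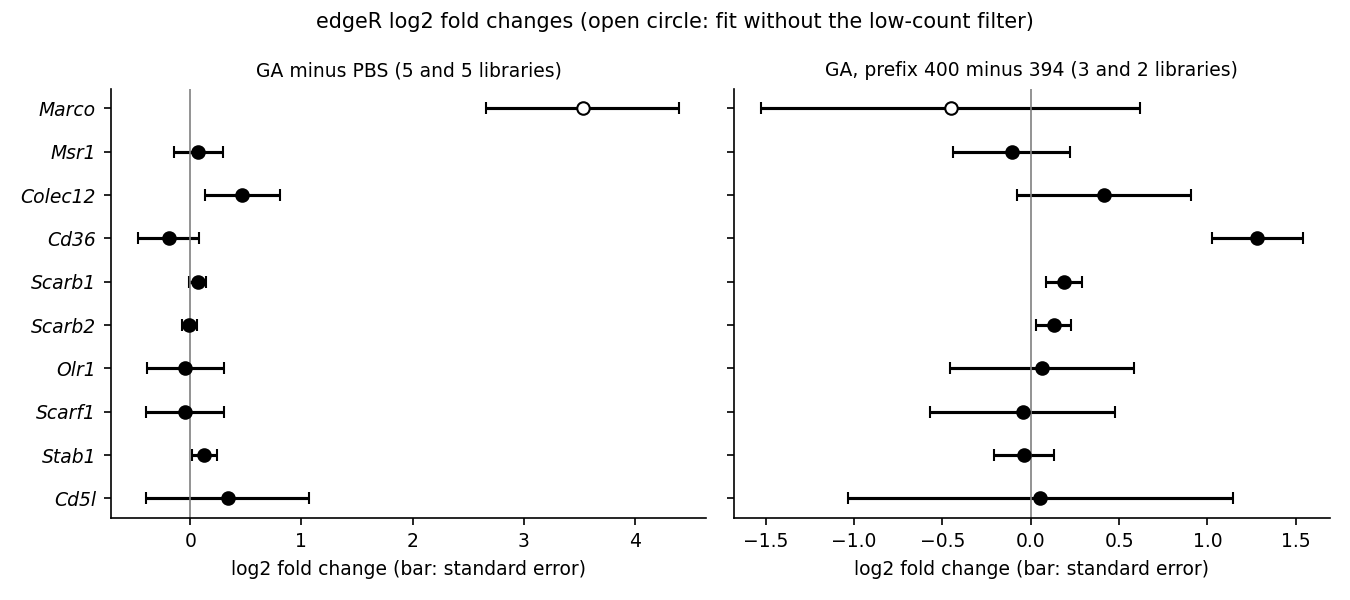
Log2 fold changes (horizontal axes) with standard errors for each gene (vertical axis), for GA minus PBS on the left and for GA libraries of prefix 400 minus those of prefix 394 on the right. *Marco*, drawn open because it comes from the fit without the low-count filter, lies at 3.53 on the left and at -0.45 on the right, and *Cd36* lies at -0.20 and 1.28.

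The 2 prefixes within the GA group were compared in a separate edgeR fit of all 10 libraries, with the prefixes as groups. *Cd36* was higher in the libraries of prefix 400 (mean 9.37 CPM, n = 3) than in those of prefix 394 (mean 3.86 CPM, n = 2), by a log2 fold change of 1.28 (SE 0.26). Its unadjusted p was 2.3e-04 in edgeR, where 5.48% of genes had one under 0.05, and its adjusted p of 0.212 missed the threshold. The edgeR test called 2 genes, 0.0138% of those tested, neither of them a member. DESeq2 called 0.39% of its genes (64 of 16414) and *Cd36* was among them, with a log2 fold change of 1.28 (SE 0.25) and an adjusted p of 4.46e-04. Without the low-count filter, edgeR gave *Cd36* an adjusted p of 0.0142, a setting added after the data were seen. The call on *Cd36* therefore depended on the setting. DESeq2 differed from the main fit in the genes tested as well as in the test, so the part of each is not told apart.

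Some marker sums differed between the same libraries. Border-associated macrophage markers summed to 53.6 and 94.1 CPM in 394_1 and 394_2 and to 105, 212 and 104 CPM in 400_1, 400_2 and 400_3. The PBS libraries ran from 53.7 to 280 CPM. Mural and fibroblast markers summed to 12.3 and 11.5 CPM in prefix 394 and to 20.7, 26.8 and 19.6 CPM in prefix 400, against 12.1 to 23.7 CPM in PBS. This sum was mostly *Cspg4*, at 7.98 to 19.3 CPM in PBS and 7.29 to 22.9 CPM in GA, and *Pdgfrb*. These were the only 2 genes of the list that passed the filter. The astrocyte sum was at 326 CPM in 394_1 and 354 CPM in 394_2 against 247 to 306 CPM in the other 8, and nearly all of it was 1 gene. That gene, *Slc1a3*, which encodes a glutamate transporter, was at 323 and 349 CPM in 394_1 and 394_2 and at 242 to 295 CPM in the other 8. The other 9 genes of the list summed to 3.08 and 5.61 CPM in 394_1 and 394_2 and to 3.40 to 11.3 CPM elsewhere. Endothelial markers, at 64.3 and 71.1 CPM in 394_1 and 394_2, lay within the 62.2 to 75.8 CPM of the PBS libraries. *Cldn5*, a defining endothelial gene, was at 0.244 CPM or less in every library. Over the 10 libraries, with the group means removed, *Cd36* and border-associated macrophage markers gave r = 0.41 and rho = 0.59 (permutation p = 0.169 and 0.0540, adjusted over 40 correlations 0.525 and 0.571), and r was 0.16 without the 2 libraries farthest from the median sum. *Cd36* gave r = -0.40 with neutrophil markers (permutation p = 0.325, adjusted 0.703), r = 0.27 with endothelial and r = -0.02 with monocyte markers. The cause of the *Cd36* difference between the prefixes was not tested.

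No other member was called between the prefixes. The log2 fold change of *Marco*, prefix 400 minus 394, was -0.45 (SE 1.07), and each prefix held a library of 7 counts. *Scarb1* differed by 0.19 (SE 0.10) and *Scarb2* by 0.13 (SE 0.10), with edgeR adjusted p-values of 0.971 and 0.9996.

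Compared per length of exon, the levels of the 10 genes spanned a wide range. In RPKM (CPM divided by the merged exon length in kilobases), the means over the 10 libraries were 39.8 for *Stab1*, 33.1 for *Scarb2*, 9.21 for *Scarb1*, 2.14 for *Cd36*, 1.57 for *Msr1*, 0.676 for *Colec12*, 0.539 for *Scarf1*, 0.526 for *Olr1*, 0.261 for *Cd5l* and 0.121 for *Marco*. *Stab1* and *Scarb2* lay above 92.9% and 90.9% of the genes tested, and *Marco* above 3.37%. *Stab1* and *Scarb2* together gave most of the summed RPKM of the 10 genes in every library.

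Neighbours in this order were compared within libraries by an exact two-sided sign-flip permutation test on log2(RPKM + 0.1), adjusted over 9 pairs. *Stab1* was above *Scarb2* in 9 of 10 libraries, by 0.25 ± 0.27 on this log2 scale (SD, n = 10, exact permutation adjusted p = 0.0396). *Scarb2* was above *Scarb1*, *Scarb1* above *Cd36* and *Msr1* above *Colec12* in 10 of 10 libraries each (exact permutation adjusted p = 0.00586 for each). *Olr1* was above *Cd5l* in 8 of 10 (exact permutation adjusted p = 0.0457). *Cd36* and *Msr1*, *Colec12* and *Scarf1*, and *Scarf1* and *Olr1* did not differ beyond their spread (exact permutation adjusted p = 0.141, 0.387 and 0.893). The level of *Marco* was part of its choice, and its place at the end of the order is a description. The lengths matter most for *Scarb1*, whose merged exons span 8500 bases against 3093 for its longest transcript, and for *Msr1*, with 6344 against 3636. With the longest transcript in place of the merged length, the difference of *Scarb2* over *Scarb1* fell from 1.84 to 0.81 on the log2 scale, *Msr1* came before *Cd36*, and the pairs of *Stab1* and *Scarb2* and of *Olr1* and *Cd5l* no longer passed (exact permutation adjusted p = 0.0791 and 0.0571).

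**Figure D4:**
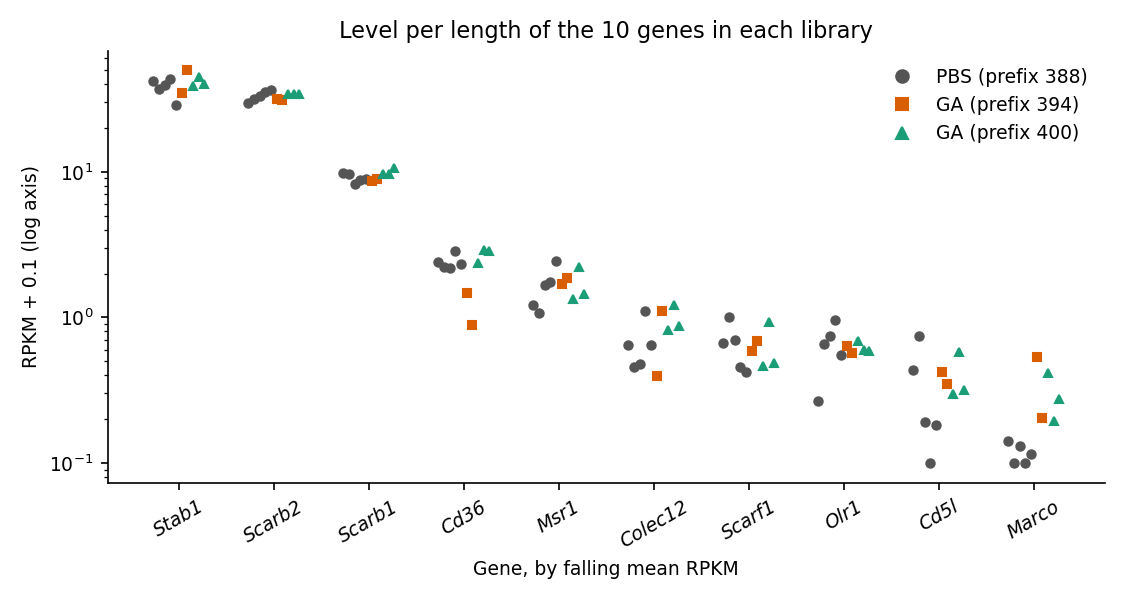
RPKM plus 0.1 on a log axis (vertical) for the 10 genes in order of their mean (horizontal), with a point for each library and shape and colour for prefix. Means fall from 39.8 RPKM for *Stab1* to 0.121 RPKM for *Marco*, and the points of neighbouring genes overlap except between *Scarb2* and *Scarb1* and between *Scarb1* and *Cd36*.

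The members also differed in how much they varied between libraries of a group. The SD of log2(CPM + 0.1) around the group means was 0.67 for *Colec12*, 0.56 for *Cd36*, 0.41 for *Msr1*, 0.22 for *Stab1* and 1.09 for *Cd5l*. Among genes whose mean CPM lay within 1.5-fold of each, 94.8%, 94.1%, 88.2%, 91.0% and 87.5% had a smaller SD. For *Cd36* the spread lay in the GA group, with an SD of 3.20 CPM against 0.980 CPM in PBS. *Scarb1* (0.11) and *Scarb2* (0.10) varied less than the median gene of like level (0.13 and 0.11). For *Marco* the value was 0.60, against a median of 0.68 for 380 genes of like level. Those genes passed the low-count filter and *Marco* did not. Its PBS values also lay below the 0.1 CPM added, which narrows its SD, so the 2 values are not fully alike.

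Whether the members followed markers of other cells was examined across the 10 libraries, after the group means were removed. The measure was a correlation of log2(CPM + 0.1) with the summed markers of border-associated macrophages, monocytes, neutrophils and endothelial cells, 40 correlations in all. None passed (smallest permutation adjusted p = 0.476). *Colec12* with border-associated macrophage markers gave r = 0.70 and rho = 0.62 (permutation p = 0.0356 and 0.0735, adjusted 0.476 and 0.571, n = 10), and r was 0.39 without the 2 libraries farthest from the median. *Stab1* gave r = 0.66 and rho = 0.44 with the same list (permutation p = 0.0570 and 0.238, adjusted 0.476 and 0.627), and r = 0.59 without the 2 libraries. For *Marco* the correlation with border-associated macrophage markers was r = -0.37 and rho = -0.24 (permutation p = 0.272 and 0.487, adjusted 0.679 and 0.672), and r = 0.03 without the 2 libraries. The *Marco* counts of the PBS libraries, 0 to 3, limit each of its correlations. By Pearson's r, the smallest p of the 40 belonged to *Marco* with endothelial markers, at r = -0.71 and rho = -0.69 (permutation p = 0.0285 and 0.0417, adjusted 0.476 and 0.571), and r was -0.71 without the 2 libraries. By Spearman's rho it belonged to *Stab1* with monocyte markers, at r = 0.61 and rho = 0.72 (permutation p = 0.0678 and 0.0233, adjusted 0.476 and 0.571), and r was 0.67 without the 2 libraries. The endothelial sum was mostly *Pecam1*, *Kdr* and *Flt1*. The part of any of these cells in the *Marco* counts was not tested further.

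Monocyte markers summed to 30.7 to 60.9 CPM in PBS and 33.7 to 42.1 CPM in GA, with 1 tested gene higher and 6 lower in GA. Of these, 3 had an unadjusted edgeR p under 0.05, against 5.75% of all genes tested, and 0 were called. The largest part of the sum was *Ccr2*, at 17.9 to 49.0 CPM in PBS and 26.6 to 31.1 CPM in GA. Sums of the other marker lists overlapped between PBS and GA, at 12.1 to 23.7 and 11.5 to 26.8 CPM for mural cells and fibroblasts, 180 to 210 and 175 to 218 CPM for oligodendrocytes, 2.51 to 4.55 and 1.62 to 3.90 CPM for neurons, and 0.448 to 1.59 and 0.433 to 1.17 CPM for lymphocytes. *Slco1a4* (endothelial) and *Rgs5* (mural) were at 0 in every library.

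A list of 30 other scavenger receptors was examined beside the members. Of these, 18 passed the filter, 8 higher and 10 lower in GA, with a median log2 fold change of -0.03, and 6 were at 0 in every library. None was called by edgeR and 1 of the 18 had an unadjusted p under 0.05, near the 5.75% over all genes tested. That gene was *Mrc2*, a collagen-binding receptor of the mannose receptor family, at 21.5 to 40.2 CPM in PBS and 31.0 to 41.4 CPM in GA (log2 fold change 0.50, SE 0.16, edgeR adjusted p = 0.847). *Cd68*, a lysosomal glycoprotein of macrophages, had the highest RPKM of the list, with a log2 fold change of -0.01 (SE 0.09). *Cd14*, the coreceptor for lipopolysaccharide, followed with 0.07 (SE 0.14), and *Lgals3bp*, a secreted galectin ligand, with 0.17 (SE 0.17). The lowest genes above 0 were *Ssc5d* and *Lrp2*, each with 1 count in 1 library.

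Of 26 partners and regulators of these receptors, 24 passed the filter, 11 higher and 13 lower, with a median log2 fold change of -0.02. None was called by edgeR, and 1 of the 24 had an unadjusted p under 0.05, again near the 5.75% over all genes. It was *Mitf*, a transcription factor of lysosomal and pigment cell genes, at 16.0 to 23.7 CPM in PBS and 13.5 to 17.5 CPM in GA (log2 fold change -0.31, SE 0.12, edgeR adjusted p = 0.847). *Pparg*, a nuclear receptor known to drive *Cd36* in macrophages, held at most 10 counts in any library, as did *Pdzk1*, which encodes an adaptor of SR-B1. *Cd9*, a tetraspanin that associates with CD36, had the highest RPKM of the list, with a log2 fold change of -0.02 (SE 0.10). *Lyn*, a Src family kinase, was also among the 3 highest, with -0.02 (SE 0.07).

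The genes whose pattern was most like that of *Marco* within the groups were *Mff* (r = 0.907), *Cnot8* (r = 0.899) and *Top3a* (r = 0.899), by Pearson correlation of group-centred log2(CPM + 0.1) over the 10 libraries. *Mff* encodes a mitochondrial fission factor, *Cnot8* a deadenylase subunit and *Top3a* a topoisomerase. They were the highest of 12172 genes searched and are named as a description. Unlike *Marco*, each was at a similar level in both groups, with *Mff* at 96.2 to 107 CPM in PBS and 102 to 113 CPM in GA.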

How the data were processed

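The deposited table holds raw counts per gene that the authors made from single-end reads of 100 nt. The submitters' processing notes name bcl2fastq 2.19.0, fastp 0.20.0, STAR 2.7.0f, Subread 1.6.4 with featureCounts, DESeq2 and GRCm38.p6. The annotation and the strand setting are not given in the sources used here. RNA was pre-amplified from small amounts (SMARTer Ultra Low v4, NexteraXT), and reads carry no molecular identifiers. Cells were cleared of myelin on a 40% percoll gradient per the labels.

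Libraries were grouped by the treatment label. Nothing says that each came from a separate animal, so p-values measure only the spread between these samples, which may be technical. The main test was edgeR 4.0.16 quasi-likelihood (R 4.3.3) with TMM scaling, filterByExpr (minimum count 10, which left 14481 of 55453 genes) and Benjamini-Hochberg adjustment over all genes tested. The common dispersion was 0.0464. *Marco* failed this filter, so its fold change comes from the same model on all 27564 genes with at least 1 count. CPM uses TMM-scaled library sizes, and log scales add 0.1 to CPM or RPKM. Gene models were GENCODE M21 and promoter windows RefSeq. Alternatives were DESeq2 1.42.0, limma-voom (limma 3.58.1), other scalings and filters, each library left out, each GA prefix alone and a block on the library number.

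The members and lists were chosen with earlier results of these data known. Genes named beyond the members were, in each list, those with an unadjusted p under 0.05, the 3 highest and the 2 lowest by RPKM, and the 3 genes most like *Marco*. Sequences and coordinates of *Colec12* and some named items are not reported here.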

Additional observations from a re-analysis of the deposited data

Results flagged for a closer look

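*Cd36* stood out because DESeq2 called a difference between the 2 prefixes of GA library names: a log2 fold change of 1.28 (SE 0.25, adjusted p = 4.46e-04), prefix 400 minus 394, with 3 of 3 libraries of prefix 400 above both of prefix 394. The edgeR test gave the same size and an adjusted p of 0.212. *Scarb1* and *Scarb2* stood out because both libraries of prefix 394 lay below the PBS mean and all 3 of prefix 400 above it. The share of all genes with such a split, or with that of *Cd36*, is not given here, so these patterns are a description. Tested as the difference between the prefixes, *Scarb1* gave a log2 fold change of 0.19 (edgeR adjusted p = 0.971) and *Scarb2* one of 0.13 (edgeR adjusted p = 0.9996), so neither passed. No library was an outlier within its group by Dixon's test for any of the 10 genes (0 of 20 groups, where chance gives about 1 in 20).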

How the results depend on the processing

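The log2 fold change of *Marco* ran from 3.15 to 4.07 over 17 alternatives, with a direction that its choice fixes. A minimum of 10 counts in every library left no value for it. Genes called between GA and PBS were 0 in edgeR, 2 with DESeq2 and 0 to 1 with each library left out (1 without 394_1). Between the prefixes 2 genes were called, but 64 with DESeq2, 81 with no low-count filter, and 0 to 3 with each GA library left out (0 without 394_1, 1 without 400_2). Where prefix 394 keeps 1 library, that library is assumed to vary like the others. *Cd36* between the prefixes passed with DESeq2 (1.28) and with no low-count filter (1.29), and ran from 0.93 without 394_2 to 1.74 without 394_1. Members with an unadjusted p under 0.05 were 0, and 1 each without 388_4 and without 394_1 (*Colec12*), and with prefix 394 as the only GA libraries (*Cd36*). Of the neighbouring pairs in the order of levels, 5 differed, against 6 with a pseudocount of 0.01 RPKM, 3 with the longest transcript length, 3 to 5 with each library left out (3 without 388_3, 388_4 or 400_3) and 0 in the 5 PBS libraries alone, which are too few for this test to pass. No correlation with marker sums passed under its 3 alternatives.

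Several log2 fold changes of the members changed sign, none with a call. For GA minus PBS these were *Cd36* with prefix 400 only (0.20), *Scarb1* with prefix 394 only (-0.042), *Scarb2* with no low-count filter (0.00096) and with prefix 400 only (0.047), and *Olr1* with limma-voom (0.16). With each library left out the ranges were -0.053 to 0.28 for *Msr1*, -0.34 to 0.0098 for *Cd36*, -0.050 to 0.032 for *Scarb2*, -0.27 to 0.19 for *Olr1* and -0.26 to 0.20 for *Scarf1*. Between the prefixes they were -0.38 to 0.040 for *Msr1*, -0.21 (without 394_1) to 1.56 (without 394_2) for *Colec12*, -0.029 to 0.16 for *Olr1*, -0.54 to 0.16 for *Scarf1*, -0.27 to 0.24 for *Stab1* and -0.47 to 0.27 for *Cd5l*. The cause of these changes was not tested.

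Libraries of the same number share only that number: their deviations from the group means correlated by -0.12 to 0.05 over 5 pairs, and 1 of 5 GA libraries correlated best with the PBS library of its number. With this replicate block 0 genes were called, as without it. Without the low-count filter, the fit behind the *Marco* value of 3.21, the block gave 191 calls against 0. In the filtered fit the log2 fold changes were 0.085 for *Scarb2*, 0.34 for *Olr1* and -0.20 for *Cd5l*, each of opposite sign to the fit without the block. The block also moved *Msr1* to 0.41, *Colec12* to 0.76 and *Scarf1* to -0.45, none called. Counts under 10 limit *Marco* in all PBS libraries and in 394_2 and 400_2.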
